A study of Mus musculus with 10 samples.

Results

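The 9 genes described here act where a bone marrow progenitor commits to the B lineage and first assembles a receptor. They are *Ebf1*, *Pax5*, *Cd79a*, *Cd79b*, *Vpreb1*, *Vpreb3*, *Igll1*, *Blnk* and *Blk*, taken by name, and they are 9 of the 55359 genes of the expression table. All 9 were found by their Ensembl identifiers, *Vpreb1* under its current symbol *Vpreb1a*. The samples are lineage-negative (Lin-) cells from bone marrow, with 5 RNA-seq libraries from Dhx9f/f animals (WT) and 5 from Dhx9f/f;MX1 animals (cKO). Both groups carry the floxed *Dhx9* allele, and in the cKO group Cre recombinase is driven by the *Mx1* promoter, which responds to interferon in many cell types. By the general methods of the study, poly(I:C), a mimic of viral RNA, was injected to switch this Cre on, and animals were taken about a week after the first dose. Whether the WT mice sequenced here were also injected is not given in the sources used here, nor is the age of the mice, so an effect of the injection and one of the genotype cannot be told apart if they were not. Mature cells were removed with an antibody depletion kit, so what remains is a mixed progenitor pool in which B-lineage cells that already carry lineage markers are depleted. The labels number the libraries within each genotype and do not state that each came from its own mouse, so p-values measure the spread between these libraries.

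In a pro-B cell the transcription factors EBF1 and PAX5 switch on B-lineage genes and hold other fates off. A large pre-B cell then displays a newly made μ heavy chain with the surrogate light chain, which is built of λ5 (from *Igll1*) and VpreB (from *Vpreb1* and *Vpreb2*). Igα and Igβ (from *Cd79a* and *Cd79b*) carry the signal of this pre-B receptor inward, where the Src family kinase BLK and SYK act and BLNK links SYK to the enzymes downstream.

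The target gene goes against the labels. *Dhx9* was at 65.43 to 72.42 FPKM (fragments per gene after scaling by its length and by library depth) in WT and at 130.82 to 156.49 FPKM in the cKO-labelled libraries, a log2 change of 1.0 (SE 0.0654, limma with Benjamini-Hochberg adjustment, adjusted p = 1.39e-05). Which exons were read cannot be seen in a value per gene. Libraries are therefore named by their labels below, and every direction rests on them. The groups also differ in sex-linked transcripts, since *Xist* was above 1 FPKM in WT libraries 3, 4 and 5 and in no other library. The Y-linked *Ddx3y* was at most 0.05 FPKM in those 3 libraries and at 19.66 to 38.53 FPKM in all others. By both transcripts, sex was not balanced between the labels. Depth, read from the steps between low values, was 13792567 to 17176698 fragments in the cKO-labelled libraries and 15027921 to 18623340 in WT.

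Sequence upstream of the genes shows one feature that 4 of them share. The windows used run from 250 bases before to 50 bases after an annotated start and come from RefSeq (GRCm38.p6). They were placed on GRCm39, the build of the files, by exact match. Of the 9 genes, 7 had a window. *Cd79b* and *Blk* had none. The E-box CAGGTG, a sequence that the E-protein partners of EBF1 (TCF3 and TCF12) can bind, was searched on both strands and was found in 4 of the 7 (*Cd79a*, *Vpreb1*, *Igll1* and *Blnk*), where 20.2% of all 32851 windows hold it. The related E-box CAGCTG was in 1 of 7 (*Igll1*, against 16.3% of all windows). The core of the palindrome that EBF1 binds, CCCNNGGG, was also in 1 of 7 (*Igll1*, against 13.7%), and the full palindrome, which adds a T before that core and an A after it, was in 0 of 7 (0.904% of all windows). The sequences below show the *Igll1* stretch, which holds all 3 kinds of match, and the E-box with its neighbours in the other genes. All are written 5′ to 3′ on the strand of the gene, with the matches in capitals, and CACCTG is CAGGTG read on the opposite strand.

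*Igll1*, chr16:16681850-16682099, minus strand: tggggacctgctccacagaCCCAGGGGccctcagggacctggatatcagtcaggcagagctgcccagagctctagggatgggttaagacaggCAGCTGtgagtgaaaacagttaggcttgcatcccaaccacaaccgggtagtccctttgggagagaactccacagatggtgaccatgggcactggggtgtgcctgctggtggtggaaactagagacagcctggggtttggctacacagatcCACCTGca
*Vpreb1*, chr16:16687190-16687219, minus strand: atgacgttccagCAGGTGcttcctcccaga
*Cd79a*, chr7:24596756-24596785, plus strand: ttgtggccagccCAGGTGcagggcagttcc
*Blnk*, chr19:40982807-40982836, minus strand: aacctggcaacaCACCTGatcataaaagag

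The stretch of *Igll1* ends at the base before its start, and its E-box begins at position -8, counted from the start. That of *Vpreb1* begins at position -88, that of *Cd79a* at -154 and that of *Blnk* at -160. The *Cd79a* and *Blnk* stretches also lie within exons of longer annotated transcripts. These 4 genes did not share 1 pattern of expression: *Igll1* and *Blnk* were called lower below, and *Cd79a* and *Vpreb1* were not.

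The comparison asks how expression in Lin- cells differs between the labels. Of the 9 genes, 8 reached the minimum level for testing (0.1 FPKM on average), and 4 were called lower in the cKO-labelled libraries: *Cd79b*, *Vpreb3*, *Igll1* and *Blnk*. None was called higher (limma, 0 of 8), and 5 of the 8 had an unadjusted p under 0.05, the fifth being *Pax5*. A call needs an adjusted p below 0.05 and a 2-fold difference or more on log2(FPKM + 0.1), a scale on which low genes appear to change less than they do. By this rule 16.8% of the 18742 genes tested were called lower (3153 genes) and 4.60% higher (862 genes), a balance that quantile normalization moved to 2245 lower and 1581 higher. The median log2 change of the 8 was -1.39 and that of all genes tested was -0.11. With a pseudocount of 1 the median of the 8 was -0.47. Without cKO-labelled library 4 *Ebf1* also passed the filter, and the median of all 9 was -0.81, the value of *Ebf1* itself. That median is over other genes than the -1.39. In 3 genes (*Cd79b*, *Igll1* and *Blnk*) all 5 cKO-labelled libraries lay below all 5 WT libraries, which 21.6% of the genes tested did. Of the 6392 genes tested that averaged 1 FPKM or less, as 5 of the 8 did, 20.8% were called lower. On adjusted p alone, without the fold limit, the same 4 members were lower and none higher, where 28.3% of all genes tested were lower and 16.7% higher. With a pseudocount of 1, *Igll1* (-0.45) and *Blnk* (-0.51) passed the adjusted p and missed the fold limit, which left *Cd79b* alone called. The accounts that follow take the members by role. In a mixed pool, fewer cells of a type and less RNA per cell cannot be told apart.

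**Figure D1:**
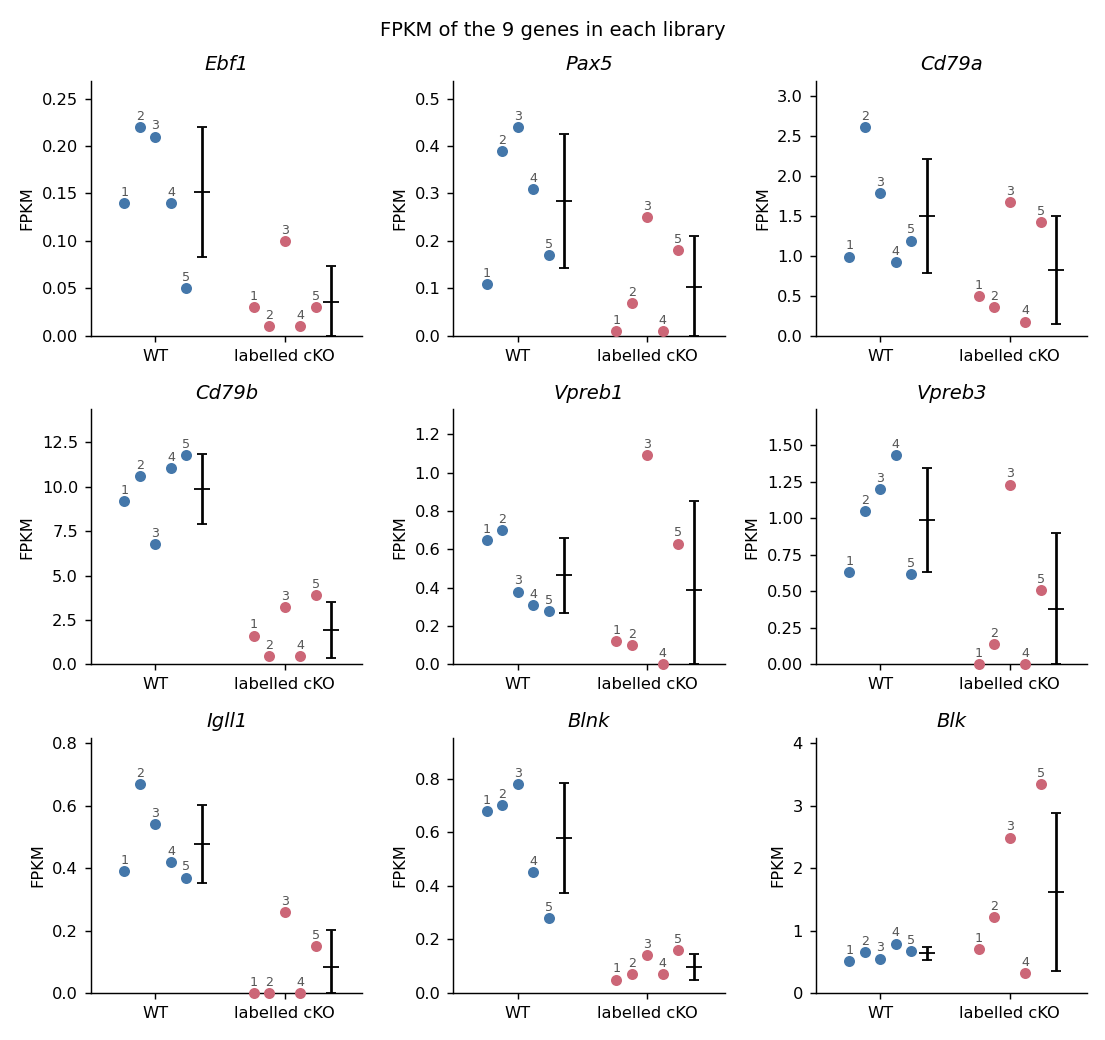
FPKM (vertical axes, each from 0) of the 9 genes in the 5 WT libraries (blue) and the 5 labelled cKO (red), numbered by replicate, with the mean and SD of each group in black (bars stop at 0). cKO-labelled libraries 3 and 5 stand above libraries 1, 2 and 4 of that label in every gene but *Ebf1*, where library 5 ties with library 1.

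*Ebf1* (ENSMUSG00000057098, chromosome 11 from 44508138 to 44898918, plus strand) starts the B-lineage program. It was at 0.14, 0.22, 0.21, 0.14 and 0.05 FPKM in WT, from library 1 to 5, and 0.03, 0.01, 0.1, 0.01 and 0.03 FPKM in the cKO-labelled ones. Of the cKO-labelled libraries, 4 lay below all WT libraries and library 3 lay among them. Its mean over all libraries, 0.094 FPKM, is below the filter, so it has no value in the fit across genes. The log2 means differed by -0.88, with p = 0.0159 in the two-sided exact permutation test over the 10 libraries. In the fit without the filter its adjusted p was 0.0249 (limma, 28093 genes), with a fold change under 2. These levels rest on about 7 to 35 fragments in WT and 1 to 16 in the cKO-labelled libraries.

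*Pax5* (ENSMUSG00000014030, chromosome 4 from 44524757 to 44710487, minus strand) is the factor that fixes commitment. Its values were 0.11, 0.39, 0.44, 0.31 and 0.17 FPKM in WT and 0.01, 0.07, 0.25, 0.01 and 0.18 FPKM in the cKO-labelled libraries. The groups overlap, since cKO-labelled libraries 3 and 5 lie within the WT range and the other 3 below it. The log2 change was -0.99 (SE 0.424, adjusted p = 0.0805 by limma) and was not called. Without cKO-labelled library 3 it was -1.22 and was called (adjusted p = 0.0375).

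Igα and Igβ form a pair at the surface, yet their transcripts differed in level, and only *Cd79b* was called lower. *Cd79b* (ENSMUSG00000040592, chromosome 11 from 106202167 to 106205588, minus strand), which encodes Igβ, had the highest level of the 9 in WT, at 9.19, 10.58, 6.78, 11.06 and 11.75 FPKM. It was at 1.62, 0.45, 3.22, 0.47 and 3.91 FPKM in the cKO-labelled libraries, all below the lowest WT library. The means were 9.87 ± 1.97 and 1.93 ± 1.58 FPKM (n = 5 each, ± SD). The log2 change was -2.72 (SE 0.544, limma, adjusted p = 0.0021). With about 150 to 295 fragments in WT and 10 to 89 in the cKO-labelled libraries, it is the member whose fall rests on the most reads.

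*Cd79a* (ENSMUSG00000003379, chromosome 7 from 24596740 to 24601622, plus strand), which encodes Igα, was at 0.99, 2.61, 1.78, 0.92 and 1.19 FPKM in WT. In the cKO-labelled libraries it was at 0.5, 0.36, 1.67, 0.18 and 1.42 FPKM. cKO-labelled libraries 1, 2 and 4 lay below the WT range and libraries 3 and 5 within it. Its log2 change of -1.03 had a 95% interval from -2.16 to 0.11 (limma, adjusted p = 0.129). Without cKO-labelled library 3 it was -1.35 and was called (adjusted p = 0.0479). The ratio of *Cd79a* to *Cd79b* within a library, looked at after the values were seen and not tested, was 0.0832 to 0.263 in WT and 0.309 to 0.800 in the cKO-labelled libraries, ranges that do not overlap.

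*Igll1* was called lower, as was *Vpreb3* with an adjusted p close to the threshold, and *Vpreb1* was not called. *Igll1* (ENSMUSG00000075370, chromosome 16 from 16678535 to 16681849, minus strand), which encodes λ5 and whose upstream stretch is printed above, was at 0.39, 0.67, 0.54, 0.42 and 0.37 FPKM in WT. It was listed at 0 in cKO-labelled libraries 1, 2 and 4 and was at 0.26 and 0.15 FPKM in libraries 3 and 5, so the groups do not overlap. The log2 change was -1.87 (SE 0.413, limma, adjusted p = 0.00378; 0.0583 and not called against WT libraries 1 and 2 alone, whose *Xist* is low too), from about 12 to 24 fragments a library in WT and 0 to 9 in the cKO-labelled libraries. A count of 0 allows up to 3 fragments, so these levels limit how far the fall can be read, and with a pseudocount of 1 it was not called.

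*Vpreb1* (ENSMUSG00000059305, chromosome 16 from 16686265 to 16688710, minus strand) encodes the partner of λ5. It was at 0.65, 0.7, 0.38, 0.31 and 0.28 FPKM in WT and at 0.12, 0.1, 1.09, 0 and 0.63 FPKM in the cKO-labelled libraries. cKO-labelled library 3 was the highest of all 10, library 5 lay within the WT range and the other 3 lay below it. The log2 change was -0.71 with a 95% interval from -2.09 to 0.67 (limma, adjusted p = 0.388) that spans both directions. *Vpreb2*, its near copy, was at 0 in 2 WT libraries and in 3 of the cKO-labelled ones and reached at most 0.48 FPKM. The transcripts of the 2 genes were the same at 749 of 769 aligned bases (97.4%), and how the authors' counting treats reads of such copies is not given in the sources used here, so the split between them is uncertain. Within cKO-labelled libraries 3 and 5, where both genes were read, *Igll1* was 0.239 and 0.238 of *Vpreb1*, against 0.6 to 1.42 in WT. This ratio was not tested. In those 2 libraries it rests on about 9 and 5 fragments of *Igll1* and 21 and 12 of *Vpreb1*.

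*Vpreb3* (ENSMUSG00000000903, chromosome 10 from 75778891 to 75785496, plus strand) encodes a VpreB-like protein that binds heavy chains inside the cell. In WT it was at 0.63, 1.05, 1.2, 1.43 and 0.62 FPKM. In the cKO-labelled libraries it was listed at 0 in libraries 1 and 4 and was at 0.14, 1.23 and 0.51 FPKM in libraries 2, 3 and 5. Library 3 lay among the WT libraries. The log2 change of -1.85 (SE 0.684) was called at an adjusted p of 0.0463 by limma, and the call was lost under most alternatives, among them 8 of the 10 fits that leave out 1 library (adjusted p of 0.0598 to 0.104 in those 8).

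Of the signalling members, one fell and one did not. *Blnk* (ENSMUSG00000061132, chromosome 19 from 40916595 to 40982978, minus strand), the adaptor downstream of SYK, was at 0.68, 0.7, 0.78, 0.45 and 0.28 FPKM in WT. It was at 0.05, 0.07, 0.14, 0.07 and 0.16 FPKM in the cKO-labelled libraries, all below WT, and libraries 3 and 5 were again the highest of that label. The log2 change was -1.75 (SE 0.306, limma, adjusted p = 9.86e-04), the smallest adjusted p among the 8.

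*Blk* (ENSMUSG00000014453, chromosome 14 from 63610285 to 63654587, minus strand), the kinase, went the other way in most libraries. It was at 0.51, 0.65, 0.55, 0.79 and 0.67 FPKM in WT and at 0.7, 1.21, 2.49, 0.32 and 3.35 FPKM in the cKO-labelled libraries. There, 3 libraries lay above all WT libraries, library 1 lay within their range and library 4 below it. The log2 change was 0.85 with a 95% interval from -0.26 to 1.97 (limma, adjusted p = 0.194) and was not called. It was called higher without cKO-labelled library 4 (1.27, adjusted p = 0.0283) and under quantile normalization (1.34, adjusted p = 0.0382). The ratio of *Blk* to *Blnk*, looked at after the values were seen and not tested, was 0.705 to 2.39 in WT and 4.57 to 20.9 in the cKO-labelled libraries.

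**Figure D2:**
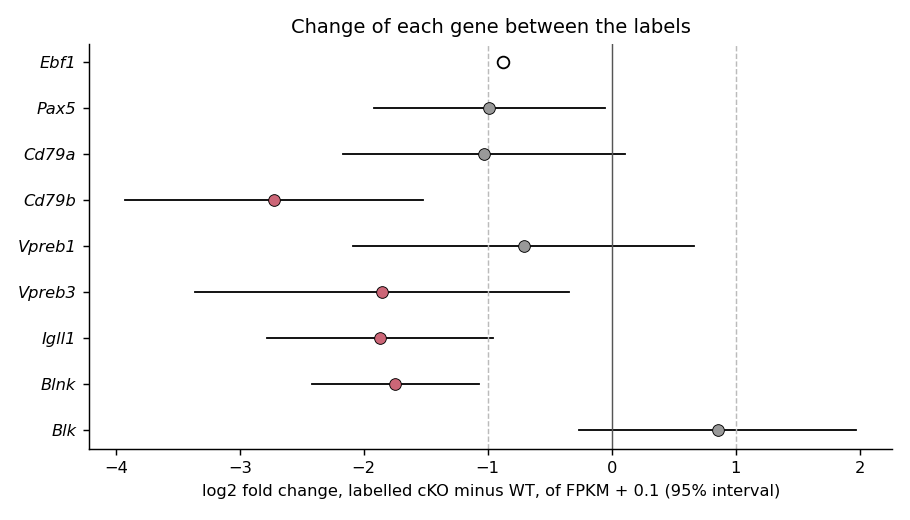
Log2 change (horizontal axis, cKO-labelled libraries minus WT, of FPKM + 0.1) of each gene with its 95% interval from limma. Red points were called lower (*Cd79b*, *Vpreb3*, *Igll1*, *Blnk*), grey points were tested and not called, the open point (*Ebf1*) was not tested, and dashed lines mark a fold change of 2.

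Whether members moved apart from each other was tested within libraries, by taking each gene's log2(FPKM + 0.1) minus the mean of the other 8. By the exact permutation test over the 10 libraries (two-sided, adjusted over 9 genes), 3 genes changed against the rest. *Blk* rose by 2.33 on the log2 scale relative to the others, from -0.22 ± 0.39 to 2.11 ± 0.54 (SD, n = 5 each, exact adjusted p = 0.0238), and every cKO-labelled library lay above every WT library. *Cd79b* fell by 1.70 relative to the others, from 4.0 ± 0.54 to 2.31 ± 0.77 (exact adjusted p = 0.0238). *Igll1* fell by 0.74, from -0.62 ± 0.09 to -1.36 ± 0.28 (exact adjusted p = 0.0238). Each of these p-values comes from the smallest that 5 against 5 allow, 0.00794 before adjustment. For the other 6 genes the difference was between -0.72 (*Vpreb3*) and 0.57 (*Vpreb1*), with exact adjusted p of 0.229 to 0.405. The measure is relative, so a shift of 1 gene moves all others by a part of it in the opposite direction, and it depends on the pseudocount for *Cd79b* (-0.94, exact adjusted p = 0.286 with 0.01) and *Igll1* (-0.0043, exact adjusted p = 0.984 with 1). The size for *Blk* moved with it too, to 3.27 with 0.01 and 1.11 with 1 (exact adjusted p = 0.0357 in both).

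**Figure D3:**
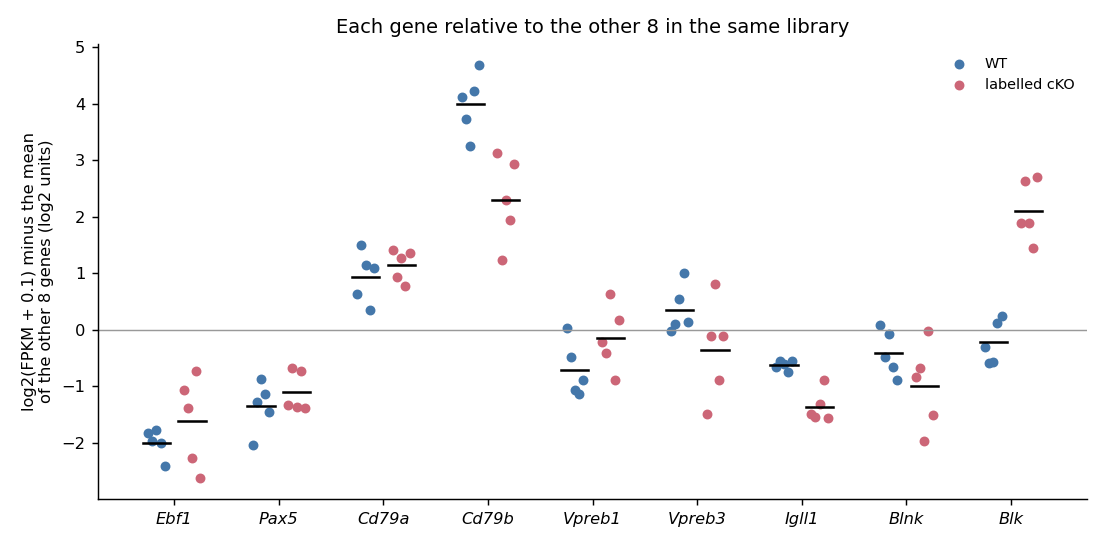
For each gene, log2(FPKM + 0.1) minus the mean of the other 8 genes in the same library (vertical axis, log2 units) in WT (blue) and the cKO-labelled libraries (red), with group means as black lines. The groups are apart for *Blk*, which is higher, and for *Cd79b* and *Igll1*, which are lower, in the cKO-labelled libraries.

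The cKO-labelled libraries spread more widely than the WT libraries. The 9 genes together held about 392 to 570 fragments in each WT library. They held 82, 103 and 36 fragments in cKO-labelled libraries 1, 2 and 4 and 341 and 342 in libraries 3 and 5, of which *Blk* accounted for a large part. Without *Blk* the sums were 55, 45 and 23 in the former and 229 and 194 in the latter. In libraries 1, 2 and 4, 8 of the 8 genes other than *Blk* were below the whole WT range, against 3 in library 3 and 5 in library 5. These groupings of libraries describe the values and enter no test.

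By level per length, the order in WT was *Cd79b*, *Cd79a*, *Vpreb3*, *Blk*, *Blnk*, *Igll1*, *Vpreb1*, *Pax5* and *Ebf1*. Only the first step, from *Cd79b* to *Cd79a* (means of 9.87 and 1.498 FPKM), was free of overlap among the 5 WT libraries. *Blk* and *Blnk*, at 0.634 and 0.578 FPKM, were in that order in only 2 of 5 libraries, and neighbours from *Cd79a* downward do not differ beyond their spread.

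Other genes of the pathway were read from fixed lists. Among 14 further regulators of the B lineage, 13 were tested, 6 were called lower and 0 higher by limma, with a median log2 change of -0.99; on adjusted p alone 3 were higher. *Pou2f2*, the octamer factor OCT2, fell from 2.94 ± 0.481 to 0.490 ± 0.430 FPKM (SD, n = 5 each). *Ets1* (log2 change -2.07) and the PU.1 relative *Spib* (-2.33) also fell. The E protein gene *Tcf3*, an early partner of EBF1, was at 39.0 to 55.5 FPKM in WT and 61.4 to 72.8 in the cKO-labelled libraries, a log2 change of 0.52 that passed the adjusted p (0.00125, limma) but not the fold limit. The Ikaros gene *Ikzf1* (log2 change -0.21), *Bcl11a* (0.54) and *Foxo1* (-0.99) were likewise under a fold of 2.

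Of 22 partners in receptor signalling, all were tested, 12 were called lower and 1 higher, and the median was -1.14. *Ighm*, the gene of the μ heavy chain, was at 97.48 to 118.53 FPKM in WT. It was at 12.22, 7.46, 30.79, 1.81 and 51.69 FPKM in cKO-labelled libraries 1 to 5 (log2 change -3.12, limma, adjusted p = 0.00474). Libraries 3 and 5 were again the highest of that label. A value per gene does not show which *Ighm* transcripts were read, so it is not a measure of heavy chain in the pre-B receptor. *Syk*, named above as the kinase to which BLNK is tied, is outside the naming rule and was looked at for that tie: it fell by 1.68 on the log2 scale. The adaptor genes *Dok3* (-3.0) and *Lat2* (-2.43) fell too. *Cd81*, which encodes a tetraspanin, rose by 1.10. *Grb2* (-0.30) and *Vpreb2* (-0.65) were not called.

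Among 13 genes known from pro-B and pre-B cells, all tested, 6 were called lower and 2 higher (median -0.82). *Cd93*, also made by stem and myeloid progenitors, fell from 49.6 ± 6.95 to 4.65 ± 4.71 FPKM (n = 5 each, ± SD). The myosin light chain gene *Myl10* fell by 2.49 on the log2 scale. *Cplx2*, a complexin gene, rose from 0.420 ± 0.186 to 4.86 ± 2.67 FPKM. *Cnn3* was at 7.23 to 27.9 FPKM in the cKO-labelled libraries and 14.7 to 18.7 FPKM in WT and was not called.

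Genes of the stage before commitment had a lower median than the 9 genes, a difference that was not tested. On log2(FPKM + 0.1) a gene low in WT has less room to fall, so the medians are not on equal terms. WT means ran from 0.284 (*Pax5*) to 9.87 FPKM (*Cd79b*) among the 8 genes tested. In the early list they ran from 0.724 (*Rag1*) to 20.8 FPKM (*Flt3*). Of 9 early lymphoid and recombination genes, 8 were called lower (median -3.02). *Dntt*, the polymerase that adds bases at heavy chain junctions, was at 16.42 to 20.92 FPKM in WT, was listed at 0 in cKO-labelled libraries 1, 2 and 4 and was at 0.41 and 1.56 FPKM in libraries 3 and 5. *Flt3*, a receptor of multipotent and lymphoid progenitors, had a log2 change of -3.97. *Il7r*, the receptor chain that pro-B cells need, fell from 4.81 ± 1.42 to 1.37 ± 0.775 FPKM, the recombinase gene *Rag1* fell by 2.02 on the log2 scale, and *Notch1* fell by 3.28.

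**Figure D4:**
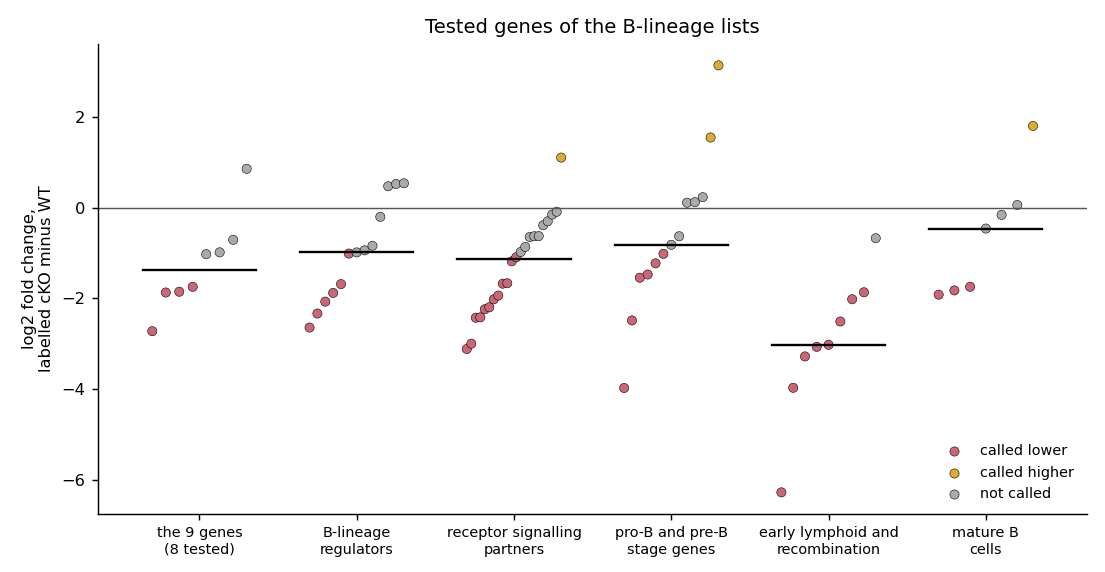
Log2 change (vertical axis, cKO-labelled libraries minus WT) of every tested gene of the 9 and of 5 B-lineage lists, with list medians as black lines. Red points were called lower, yellow points called higher and grey points not called. The early lymphoid list has the lowest median, -3.02, but genes low in WT have less room to fall on this scale.

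Markers of other cells in the pool moved between the labels as well, and their part in the values of the 9 genes was not tested. Of 12 genes of mature B cells, 7 passed the filter, 3 were called lower and 1 higher. *Ms4a1*, *Cr2* and *Fcer2a*, which define mature B cells and are given for that reason, were at most 0.29 FPKM in every library, while *Igkc* was at 65.6 to 129 FPKM in WT and 11.3 to 86.2 FPKM in the cKO-labelled libraries. *Tnfrsf13c*, the BAFF receptor of later B cells, rose by 1.80 on the log2 scale and *Tnfrsf13b* fell by 1.92. Summed over the list, mature B-cell genes were at 112 to 172 FPKM in WT and 40.1 to 114 FPKM in the cKO-labelled libraries. cKO-labelled library 5 gave the highest of the latter and library 3 the next. Nearly all of that sum came from *Igkc*, *Cd37* (21.7 to 27.8 FPKM in WT and 11.3 to 20.6 in the cKO-labelled libraries) and *Tnfrsf13b* (14.8 to 24.6 and 3.78 to 8.24 FPKM), so it does not follow the 3 defining genes.

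Plasmacytoid dendritic cells share several B-lineage transcripts, among them *Blnk* and *Spib*. Of 9 marker genes of these cells, 7 passed the filter and 4 were called lower, with sums of 69.5 to 76.5 FPKM in WT and 39.99 to 79.4 FPKM in the cKO-labelled libraries. *Bst2*, also induced by interferon, made up most of these sums (48.4 to 56.3 FPKM in WT and 30.2 to 63 FPKM in the cKO-labelled libraries). *Siglech* was at 1.91 to 3.38 FPKM in WT and at most 0.37 FPKM in the cKO-labelled libraries, and *Cd300c* fell by 4.43 on the log2 scale. *Cox6a2* did not pass the test (log2 change 0.99). The 10 genes of monocytes, macrophages and neutrophils, 8 of them called lower, summed to 3196 to 4689 FPKM in WT and 135 to 2131 FPKM in the cKO-labelled libraries. The 9 genes of T and NK cells summed to 78.5 to 103 and 7.05 to 29.5 FPKM, nearly all of it *Nkg7*, a gene of cytotoxic granules (73.0 to 96.0 and 6.3 to 24.9 FPKM). The 4 called lower were *Nkg7*, *Lck*, *Klrb1c* and *Ncr1*. The T-cell receptor genes *Cd3d*, *Cd3e*, *Cd3g* and *Trac*, looked at after their values were seen, were at most 1.17 FPKM in every library and were not called, with log2 changes of -0.62, 0.53, 0.29 and -0.52. The 7 genes of stem and progenitor cells summed to 98.3 to 134 FPKM in WT and 33.2 to 60.2 FPKM in the cKO-labelled libraries (4 called lower). The 8 erythroid genes summed to 1027 to 1899 FPKM in WT and 3493 to 6080 FPKM in the cKO-labelled libraries (5 called higher).

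The genes whose pattern over the 10 libraries was most like the mean of the 9 were sought among 12350 tested genes of 1 FPKM or more on average, by the root mean square difference of log2 values set to their WT mean. They were *Mx1* (0.338 log2 units), *Actg1* (0.359), *mt-Rnr1* (0.370), *Ets2* (0.374) and *Zfp455* (0.375). *Mx1*, an interferon-induced gene whose promoter also drives the Cre, was at 2.88 to 3.62 FPKM in WT and at 0.53, 0.85, 2.26, 0.74 and 1.94 FPKM in the cKO-labelled libraries. Libraries 3 and 5 were the highest of that label there too. None of the 5 is a gene of the lists above.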

How the data were processed

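The authors removed adapters and low-quality reads, aligned paired reads to GRCm39 and deposited a gene table of FPKM with 2 decimals. The submitters' processing notes name cutadapt 1.9.1, HISAT2 2.0.1 and HTSeq 0.6.1. The annotation, the gene lengths and the use of strand are not given in the sources used here. The study's count-based test was replaced, since FPKM are not counts. limma 3.58.1 (R 4.3.3, lmFit and eBayes with a trend) was run on log2(FPKM + 0.1) for the 18742 genes averaging 0.1 FPKM or more, two-sided, and p-values were adjusted by Benjamini-Hochberg. Calls needed an adjusted p below 0.05 and a 2-fold difference or more.

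The 9 genes, the gene lists, the tests and the motifs were chosen with earlier results of these data known. Genes named from a list are its 3 highest in level, its 3 largest changes and 9 genes named outright, of which 1 is not reported here; *Syk*, *Ms4a1*, *Cr2*, *Fcer2a* and the T-cell receptor genes were added for the reasons given. Coordinates are GRCm39. Of the 55359 identifiers, 54749 were matched to a symbol in the annotation used here. Depth and fragment numbers were derived from FPKM and annotated exon lengths, and 95.6% to 96.4% of low values came out whole within 0.2 (40% would by chance). The limit of 3 fragments for a count of 0 covers counting error only. The intervals given for log2 changes come from the limma fit and measure the spread between libraries. All pairs of libraries of a group differed beyond counting noise (lowest chi-square per degree of freedom 4.93). The fit across genes was tested on simulated data with changes placed only in genes above 1 FPKM in WT. Most of the 9 genes lie below that level, so the simulation does not cover them. Permutation tests used Python 3.11.15 with numpy 2.4.6. Alternatives were other pseudocounts, filters and scalings, no trend, a replicate block, adjusted p alone, an *Xist* term, each library left out and a motif window without transcribed bases. A fit of WT libraries 1 and 2 with all cKO-labelled libraries was chosen after seeing the data.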

Additional observations from a re-analysis of the deposited data

Results flagged for a closer look

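In groups of 5, a library counts as standing apart when its gap to the nearest other library exceeds 0.71 of the range (Dixon's 95% limit). Of 122 groups examined (61 named genes in both labels), 10 had such a library, where chance gives about 1 in 20, or 6.1. Of the 9 genes, only *Ebf1* was among them: cKO-labelled library 3 was at 0.1 FPKM and the others of that label at 0.01 to 0.03. The genes with a library apart were otherwise these. cKO-labelled library 5 was high for *Flt3* (5.86 FPKM, others 0.37 to 1.79), *Dntt* (1.56, others 0 to 0.41) and *Cd300c* (0.41, others 0 to 0.06) and low for *Hbb-bs* (563.3, others 1066.1 to 1234.26). cKO-labelled library 3 was high for *Ncr1* (0.28, others 0 to 0.08), and library 1 of that label for *Slc4a1* (236.03, others 125.43 to 157.04). Among WT, library 1 was high for *Runx2* (11.83, others 7.75 to 8.85) and *Cd300c* (6.05, others 2.25 to 3.24), and library 2 for *Cplx2* (0.75, others 0.3 to 0.36).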

How the results depend on the processing

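*Cd79b* stayed called lower in every fit that tested it, at a log2 change of -3.08 to -2.05. Its largest adjusted p by limma, 0.0497, was close to the threshold and came from WT libraries 1 and 2 alone against all cKO-labelled ones. *Blnk* and *Igll1* were lost with a pseudocount of 1, where both passed the adjusted p and missed the fold limit (log2 changes of -0.51 and -0.45). *Igll1* was also lost when WT libraries 1 and 2 alone, the WT libraries with low *Xist*, were set against all cKO-labelled ones, a fit added after seeing the data (-1.98, adjusted p = 0.0583 by limma). The call of *Vpreb3* was lost there (-1.67) and with an *Xist* term (-1.67), median-ratio scaling (-1.79), quantile normalization (-1.46), no filter, no trend or a replicate block (-1.85 each) and a pseudocount of 0.01 (-3.25) or 1 (-0.58). Leaving out 1 library gave -2.41 to -1.47 for *Vpreb3*, -1.22 to -0.80 for *Pax5*, -1.35 to -0.68 for *Cd79a* and 0.51 to 1.27 for *Blk*. *Blk* was called higher under quantile normalization (1.34).

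Of the 9 genes, 2 were called lower with WT libraries 1 and 2 alone, and 1 with a pseudocount of 1 or a minimum mean of 1 FPKM, which tests fewer genes. Leaving out 1 library gave 3 to 6, the 6 without cKO-labelled library 3. The number called higher was 0 to 1 when 1 library was left out and 1 under quantile normalization. Over all genes, 356 were called higher and 1486 lower with a pseudocount of 1, 462 and 1827 with the minimum of 1 FPKM, and 3138 and 5300 on adjusted p alone. With WT libraries 1 and 2 alone 536 were called higher, and under quantile normalization 1581. Quantile normalization moved the median log2 change of all genes tested from -0.11 to 0.10.

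For the lists, calls lower among B-lineage regulators were 2 with a pseudocount of 1 and 3 with the minimum of 1 FPKM, and calls higher were 3 on adjusted p alone. Calls lower among pro-B and pre-B stage genes were 1 with a pseudocount of 1 or the minimum of 1 FPKM, 2 with WT libraries 1 and 2 alone and 3 with an *Xist* term or quantile normalization. With WT libraries 1 and 2 alone, 5 early lymphoid genes and 1 mature B-cell gene were called lower and 0 mature B-cell genes higher. T and NK calls were 2 lower with the minimum of 1 FPKM and 1 higher under quantile normalization, stem and progenitor calls were 2 lower with a pseudocount of 1, erythroid calls were 8 higher on adjusted p alone, and plasmacytoid dendritic calls higher were 0 to 1 when 1 library was left out. The cause of these changes was not tested.

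Relative to the other 8 genes, *Cd79a* changed sign with a pseudocount of 1 (-0.042) and passed the test with 0.01 (0.92), *Cd79b* was lost with 0.01 (-0.94), *Igll1* was lost (-0.0043) and *Vpreb1* gained (0.36) with 1, and *Vpreb3* ran from -1.01 to -0.44 when 1 library was left out, passing without cKO-labelled library 3. In the motif window without transcribed bases the counts of the 9 genes were as given. Same-numbered libraries had correlations of -0.08 to 0.19 in their deviations from group means, and 5 of 10 correlated best with their own number. These values do not settle whether replicate numbers pair the libraries. The replicate block changed no call of the 9 genes but that of *Vpreb3*. The median log2 change of the members tested was -2.20 with a pseudocount of 0.01, -0.47 with 1, -0.90 under quantile normalization, -1.03 with no filter or the minimum of 1 FPKM, and -1.58 to -0.81 when 1 library was left out. These medians are not all over the same genes. *Ebf1* was tested with no filter and without cKO-labelled library 1, 2, 4 or 5. At the minimum of 1 FPKM only *Cd79a*, *Cd79b* and *Blk* were tested. A shift of the median can therefore come from the genes counted. Of 311 comparisons of a single gene's value with the value as reported, 281 were unchanged in direction and call. Of 528 counts of calls, 373 were equal to the count as reported and 499 lay within 1.5 times of it. Apart from *Cd79b* and *Blk*, the 9 genes were read from at most 83 fragments in any library, which limits what can be seen of a small difference in them.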
